A study of Homo sapiens with 12 samples.

Results

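NF-κB subunits and feedback genes were followed in a bladder cancer cell line. The 10 genes, NFKB1, NFKB2, RELA, RELB, NFKBIA, NFKBIE, NFKBIZ, TNFAIP3, BIRC3 and SOD2, were taken by gene symbol from the 60666 genes of the count table. All 10 were found, and all 10 passed the filter of at least 10 counts in every comparison. HT1376 is a cell line established from a human bladder carcinoma. HT1376 CT is a CRISPR control clone, labelled WT by the submitters. HT1376 FOXP3 KO is a clone made with CRISPR/Cas9 guide RNAs against exon 2 of FOXP3, the transcription factor best known from regulatory T cells. Each line was left untreated or was exposed to IFNγ at 100 ng/mL for 48 hours, and RNA was sequenced from 3 libraries in each of the 4 groups, numbered 11, 12 and 13. Each line is derived from a single cell, so that the loss of FOXP3 and other differences between the clones cannot be told apart. The numbers are not stated to mark separate cultures, and the p-values may measure technical spread alone.

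NF-κB is a family of dimeric transcription factors. RELA pairs with the NFKB1 product p50 in the canonical pathway, and RELB pairs with the NFKB2 product p52 in the noncanonical one. In resting cells IκB proteins, among them those encoded by NFKBIA and NFKBIE, hold the dimers in the cytoplasm, until signals from TNF, IL1 or Toll-like receptors lead to their degradation. Several NF-κB targets feed back on the pathway: NFKBIA resupplies IκBα, TNFAIP3 encodes the ubiquitin-editing enzyme A20, and BIRC3 encodes the ubiquitin ligase cIAP2.

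The κB sites of these genes' promoters are shown first, since several of these genes are known NF-κB targets themselves. RefSeq promoter windows on GRCh38.p14, from 250 bases before to 50 bases after a start, were held for 8 of the 10 genes, in 16 windows. RELB and NFKBIE had no window. The κB consensus was found on either strand in 6 of the 8 genes and in 5.91% of all 35116 windows (7.09% of 27305 genes). The genes were NFKB1, NFKB2, NFKBIA, NFKBIZ, TNFAIP3 and BIRC3. The matches are in capitals in the sequences below, which run 5′ to 3′ on the strand of the gene.

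One match is given for each gene, and both for BIRC3 and TNFAIP3, whose pair stands side by side. NFKB2 had matches in 3 more stretches and NFKBIZ in 1 more.
NFKB1, chr4:102501300-102501329, plus strand: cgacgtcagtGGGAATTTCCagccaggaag
NFKB2, chr10:102394462-102394491, plus strand: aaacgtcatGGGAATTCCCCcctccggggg
NFKBIA, chr14:35404811-35404840, minus strand: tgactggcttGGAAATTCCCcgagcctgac
NFKBIZ, chr3:101827757-101827786, plus strand: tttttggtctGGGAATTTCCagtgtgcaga
TNFAIP3, chr6:137867188-137867217, plus strand: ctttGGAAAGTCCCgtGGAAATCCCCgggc
BIRC3, chr11:102317275-102317304, plus strand: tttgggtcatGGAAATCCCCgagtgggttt
BIRC3, chr11:102317339-102317368, plus strand: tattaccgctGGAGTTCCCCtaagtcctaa

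The match in NFKB1 lay 49 to 40 bases before the start, that in NFKBIA 81 to 72 bases, and the pair in TNFAIP3 67 to 46 bases. Those in BIRC3 lay 199 to 190 and 135 to 126 bases before the start. In NFKB2 the printed match (107 to 97 bases before a RefSeq start) holds overlapping matches on both strands and lies inside the gene as GENCODE 44 draws it. In NFKBIZ it lay 223 to 214 bases before the start. Forkhead motifs were searched on both strands of the same windows. TAAACA was found in NFKB2 and in 12.32% of all windows, and TGTTTAC in none of the 8 genes and in 3.42% of all windows. These are letters in the reference genome, and binding was not measured here.

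The 12 libraries held 4490684 to 39270042 counts on genes (median 15551202), which leaves at least 51 counts for each of the 10 genes in every library. FOXP3 itself had at most 1 count in any HT1376 CT library and at most 3 in any HT1376 FOXP3 KO library. It had 0 in 8 of the 12, so its counts could neither check the labels nor show a loss of FOXP3. Epithelial markers summed to 4441 to 5777 normalized CPM over all libraries (CPM, counts scaled to library size by TMM). Between the untreated lines 13 of the 16 were tested by edgeR, at an adjusted p under 0.05. In HT1376 FOXP3 KO 4 were lower (EPCAM, at 22.2 against 85.1 CPM, CDH1, GATA3 and UPK1B) and 3 were higher (KRT7, PPARG and TP63). Of all genes tested, 18.2% were lower and 14% higher. The leukocyte markers summed to 4.68 to 8.66 CPM in the HT1376 CT libraries and to 77.4 to 233 CPM in those of HT1376 FOXP3 KO, most of it CSF1R, while of the 12 genes of that list CD2, MS4A1 and NKG7 were at 0 throughout and PTPRC averaged at most 0.805 CPM in any group. The 8 fibroblast markers summed to 28.2 to 75.9 CPM and to 450.4 to 732 CPM in the same lines. Of the 8, 5 were higher in untreated HT1376 FOXP3 KO, led in level by COL1A2, DCN and LUM, while COL1A1 (28.8 and 7.77 CPM) and THY1 (7.54 and 0.0999 CPM) were lower. The part of these genes in the differences below was not tested. Mitochondrial transcripts took 3.10% to 3.63% of counts in HT1376 CT and 4.08% to 5.11% in HT1376 FOXP3 KO.

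The first comparison asks how the basal level of the NF-κB genes differs between the lines. Without IFNγ, 7 of the 10 genes were lower in HT1376 FOXP3 KO and 2 were higher (adjusted p under 0.05 by the quasi-likelihood test of edgeR, over 25320 genes). Across all genes tested, 18.2% were lower and 14% were higher. TNFAIP3 fell furthest, by 10.9-fold, followed by NFKBIE, by 5.73-fold. NFKBIA and SOD2 were higher, by 1.42-fold and 2.09-fold. The median log2 fold change was -1.04 over the 10 genes and -0.02 over all genes tested. With IFNγ in both lines, 8 of the 10 genes were lower and 0 higher, against 15.7% lower and 13.2% higher of the 24388 genes tested. The median was then -1.42 for the 10 genes and 0.02 for all genes. In bulk RNA, fewer cells that express a gene and less of its RNA in each cell cannot be told apart.

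The second question is what IFNγ does to these genes in each line. In HT1376 CT, IFNγ raised 4 of the 10 genes (NFKBIA, NFKBIZ, TNFAIP3 and SOD2) and lowered 0, against 3.53% higher and 1.82% lower of 24416 genes tested. In HT1376 FOXP3 KO it raised 1 gene, BIRC3, and lowered 0, against 0.978% higher and 0.00414% lower of 24131 genes tested. All 10 fitted log2 fold changes were above 0 in each line, with medians of 0.70 and 0.46 (all genes -0.02 and -0.01). Libraries of the same number within a line deviated together from their group means. With the replicate number as a block, 10 genes were higher in HT1376 CT and 7 in HT1376 FOXP3 KO, against 8.67% and 3.92% of all genes tested. Adding edgeR's bias-adjusted deviance to the block left 10 and 5 higher, against 8.51% and 3.29% of all genes. Taken number by number, the treated library was the higher one in 30 of 30 gene and number combinations of HT1376 CT. The count was 29 of 30 for HT1376 FOXP3 KO, the exception being RELA in number 11. Within a line the 10 genes come from the same libraries and share their scaling, so these combinations are not separate observations. No such count was made over all genes, so these counts only describe the 10 genes. The same untreated libraries serve as controls here and in the comparison of the lines.

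**Figure D1:**
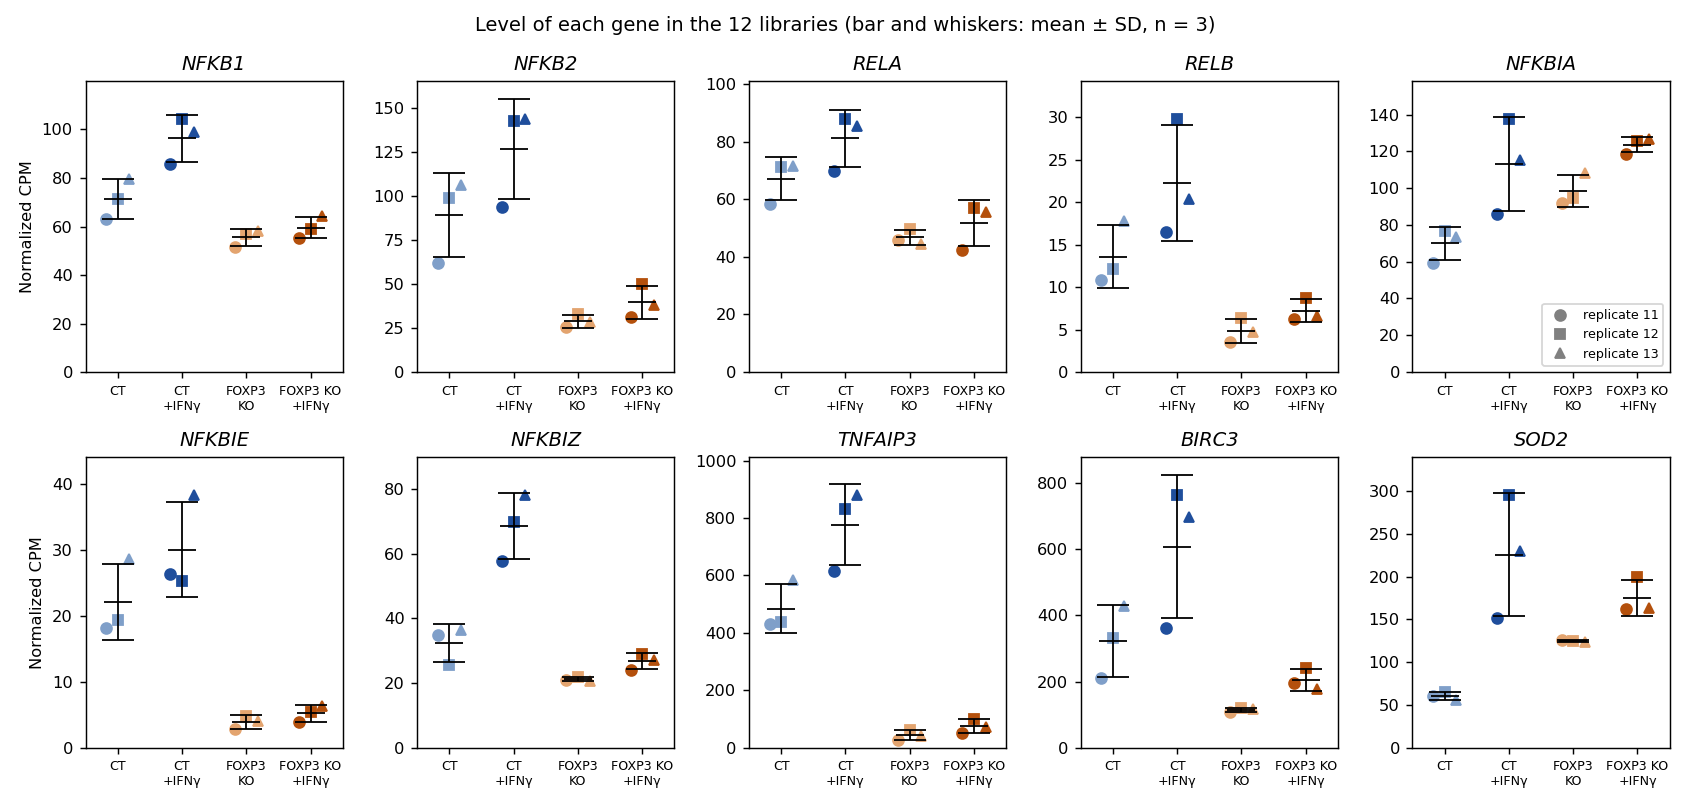
Normalized CPM of each of the 10 genes (vertical axis, from 0) in the 4 groups (horizontal axis). Each marker is 1 library, its shape gives the replicate number, and the bars are the mean ± SD over 3 libraries. TNFAIP3 and NFKBIE sit far lower in both HT1376 FOXP3 KO groups than in either HT1376 CT group, whereas NFKBIA and SOD2 do not.

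Of the 4 subunit genes, the canonical NFKB1 and RELA had the smaller fitted differences between the lines. NFKB1 (chr4:102501330-102617302, plus strand) encodes p105, the precursor of p50. In HT1376 CT it stood at 63.2, 71.5 and 79.6 CPM untreated and at 85.7, 104 and 98.9 CPM with IFNγ, in the order of replicates 11, 12 and 13. For HT1376 FOXP3 KO the values were 51.6, 56.9 and 58.3 CPM untreated and 55.4, 59 and 64.3 CPM with IFNγ. The HT1376 CT libraries with IFNγ were thus above all others, and the HT1376 FOXP3 KO groups overlapped each other. The difference between untreated lines lay at the threshold (log2 fold change -0.35, SE 0.12, adjusted p = 0.0502). It passed with the replicate block (adjusted p = 0.0140, and 0.0212 with bias-adjusted deviance), without a filter on low counts (0.0487), with bias-adjusted deviance alone (0.0495) and in the fit of all 12 libraries (0.0398). It did not pass in the other alternatives (adjusted p up to 0.0793) or in any of 6 fits without 1 library (0.0502 to 0.237). With IFNγ, NFKB1 was lower in HT1376 FOXP3 KO (log2 fold change -0.65, SE 0.13, adjusted p = 0.00315). The IFNγ effect itself gave log2 fold change 0.45, SE 0.13, adjusted p = 0.0709 in HT1376 CT. It passed the threshold only in the blocked fits (adjusted p = 0.0023 with bias-adjusted deviance), by DESeq2 (0.0309) and without a filter on low counts (0.0230). In HT1376 FOXP3 KO it was 0.12, with an adjusted p of 0.999, and did not pass in any fit.

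RELA (chr11:65653599-65663090, minus strand) encodes p65, the subunit that carries the transactivation domain of the canonical dimer. It ran at 58.5, 71.4 and 71.5 CPM in untreated HT1376 CT and at 70, 87.9 and 85.6 CPM with IFNγ. HT1376 FOXP3 KO gave 46, 49.8 and 44.5 CPM untreated and 42.5, 57.1 and 55.8 CPM with IFNγ. All untreated and treated HT1376 CT libraries lay above every library of HT1376 FOXP3 KO. RELA was lower in HT1376 FOXP3 KO both untreated (log2 fold change -0.51, SE 0.12, adjusted p = 0.00921) and with IFNγ (log2 fold change -0.61, SE 0.16, adjusted p = 0.0129). Each of these calls was lost when either of 2 libraries was left out: number 13 of untreated HT1376 CT (adjusted p = 0.0565) or 11 of untreated HT1376 FOXP3 KO (0.0548) in the first, and 13 of treated HT1376 CT (0.0633) or 11 of treated HT1376 FOXP3 KO (0.0607) in the second. The IFNγ effect on RELA was 0.30 in HT1376 CT and 0.16 in HT1376 FOXP3 KO on the log2 scale, and only the blocked fits called the former (adjusted p = 0.0203 with bias-adjusted deviance).

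The noncanonical subunits NFKB2 and RELB were much lower in HT1376 FOXP3 KO. NFKB2 (chr10:102394110-102402524, plus strand) encodes p100, which is processed to p52 after signals from receptors such as CD40 and LTBR. Its level was 61.7, 99 and 106 CPM in untreated HT1376 CT and 93.7, 142 and 144 CPM with IFNγ. The HT1376 FOXP3 KO libraries stood at 25.4, 32.8 and 28.4 CPM untreated and 31.3, 49.7 and 37.8 CPM with IFNγ. The lowest HT1376 CT library was still above the highest of HT1376 FOXP3 KO. The difference was nearly the same size untreated (log2 fold change -1.61, SE 0.20, adjusted p = 0.000102) and with IFNγ (log2 fold change -1.64, SE 0.21, adjusted p = 0.000161). Within a line the IFNγ effect was 0.53 and 0.47, called in the blocked fits alone (adjusted p = 0.000276 in HT1376 CT and 0.00637 in HT1376 FOXP3 KO with bias-adjusted deviance), besides a fit without a filter on low counts in HT1376 CT.

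RELB (chr19:45001461-45038192, plus strand), the partner of p52 and itself an NF-κB target, was low in both lines. It was at 10.8, 12.2 and 17.8 CPM in untreated HT1376 CT and at 16.5, 29.8 and 20.4 CPM with IFNγ. For HT1376 FOXP3 KO the values were 3.51, 6.33 and 4.66 CPM untreated and 6.22, 8.75 and 6.62 CPM with IFNγ, from 71 to 203 counts in a library. The lines did not overlap, and RELB was lower in HT1376 FOXP3 KO untreated (log2 fold change -1.50, SE 0.27, adjusted p = 0.00162) and with IFNγ (log2 fold change -1.58, SE 0.26, adjusted p = 0.000882). The IFNγ effect was 0.70 (SE 0.25) in HT1376 CT and 0.60 (SE 0.28) in HT1376 FOXP3 KO and was not called. With the replicate block the adjusted p was 8.19e-05 and 0.0393, and without a filter on low counts HT1376 CT passed as well. With the block and bias-adjusted deviance it was 0.042 and 0.0843.

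The inhibitor genes did not move as a group. NFKBIA (chr14:35401079-35404749, minus strand), which encodes IκBα, was higher in untreated HT1376 FOXP3 KO, while its relative NFKBIE (chr6:44258166-44265788, minus strand), which encodes IκBε, was lower. NFKBIA was at 59.5, 76.7 and 73.5 CPM in untreated HT1376 CT and at 86.2, 138 and 115 CPM with IFNγ. HT1376 FOXP3 KO gave 91.8, 94.6 and 108 CPM untreated and 119, 126 and 127 CPM with IFNγ. Untreated HT1376 CT was thus the lowest group, and the treated groups overlapped. The test gave log2 fold change 0.51, SE 0.13, adjusted p = 0.0109 between the untreated lines and log2 fold change 0.17, SE 0.16, adjusted p = 0.478 between the treated ones. IFNγ raised NFKBIA in HT1376 CT (log2 fold change 0.71, SE 0.17, adjusted p = 0.0323), a call that fell away in 4 of 6 fits without a library (number 11 or 13 of untreated HT1376 CT, 12 or 13 of the treated; adjusted p of 0.0786 to 0.138). In HT1376 FOXP3 KO the effect was 0.35 (0.361 without and 0.00328 with the replicate block and bias-adjusted deviance, adjusted p).

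NFKBIE, also an NF-κB target, was at 18.3, 19.4 and 28.7 CPM in untreated HT1376 CT and at 26.4, 25.4 and 38.4 CPM with IFNγ. The HT1376 FOXP3 KO libraries stood at 2.78, 4.82 and 4.09 CPM untreated and 3.88, 5.44 and 6.29 CPM with IFNγ, or 51 to 193 counts. Every HT1376 CT library was above every HT1376 FOXP3 KO library, and the gap was alike without (log2 fold change -2.52, SE 0.26, adjusted p = 2.73e-05) and with IFNγ (log2 fold change -2.49, SE 0.24, adjusted p = 1.83e-05). IFNγ gave 0.47 in HT1376 CT, called in the blocked fits only (adjusted p = 0.00816 with bias-adjusted deviance), and 0.45 in HT1376 FOXP3 KO, called in none.

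NFKBIZ (chr3:101827991-101861022, plus strand) encodes IκBζ, a nuclear member of the IκB family that acts as a cofactor for selected NF-κB targets. It was at 34.9, 25.6 and 36.4 CPM in untreated HT1376 CT and at 57.9, 69.7 and 78.3 CPM with IFNγ. For HT1376 FOXP3 KO the values were 21, 21.9 and 20.8 CPM untreated and 24.1, 29 and 27.3 CPM with IFNγ. IFNγ raised it in HT1376 CT by 2.16-fold (log2 fold change 1.11, SE 0.16, adjusted p = 0.00161). The treated libraries of HT1376 FOXP3 KO were also the higher ones, but the effect was 0.35 and was called with the replicate block alone (adjusted p = 0.0404, and 0.0694 with bias-adjusted deviance). NFKBIZ was lower in HT1376 FOXP3 KO both with IFNγ (log2 fold change -1.32, SE 0.15, adjusted p = 8.11e-05) and without (log2 fold change -0.59, SE 0.15, adjusted p = 0.0127). The untreated call was lost when number 11 or 13 of either line was left out (adjusted p of 0.0544 to 0.0780). The test of the difference in response gave log2 fold change -0.76, SE 0.22, adjusted p = 0.419. With the replicate block the adjusted p was 0.0346, and 0.0768 with bias-adjusted deviance. It was 0.00669 with a block within each line and bias-adjusted deviance, a fit chosen after the data were seen. NFKBIZ shares 194 exon bases with NXPE3 on the same strand (GENCODE 44), which averaged 7.47 to 11 CPM in the groups.

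TNFAIP3 (chr6:137867214-137883314, plus strand) showed the widest spread of the 10 genes, with an SD of 1.89 in log2 CPM over the 12 libraries. It was at 431, 439 and 584 CPM in untreated HT1376 CT and at 615, 831 and 881 CPM with IFNγ. HT1376 FOXP3 KO gave 27.1, 63.4 and 42.4 CPM untreated and 51.7, 99.9 and 71.5 CPM with IFNγ. The highest library of HT1376 FOXP3 KO, number 12 with IFNγ, was far below the lowest of HT1376 CT, number 11 untreated. The difference was 10.9-fold untreated (log2 fold change -3.44, SE 0.27, adjusted p = 4.42e-06) and 10.2-fold with IFNγ (log2 fold change -3.34, SE 0.24, adjusted p = 1.99e-06). IFNγ raised TNFAIP3 in HT1376 CT (log2 fold change 0.70, SE 0.15, adjusted p = 0.0201). In HT1376 FOXP3 KO the fitted effect was of similar size (log2 fold change 0.77, SE 0.32, adjusted p = 0.885), and there the blocked fit with bias-adjusted deviance gave an adjusted p of 3.5e-06. The difference in response was 0.06 with an SE of 0.37. The call in HT1376 CT fell away in 4 of 6 fits without a library (number 11 or 12 untreated, 12 or 13 treated; adjusted p of 0.0590 to 0.105) and in the fit of all 12 libraries together (0.197). WAKMAR2 (AL357060.1 in the count table), a long noncoding RNA on the opposite strand with 95 exon bases in common, fell with it from 32.3 to 2.39 CPM. The counting's use of strand is not given in the sources used here, so reads in the shared bases cannot be assigned.

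BIRC3 (chr11:102317484-102339403, plus strand) ran at 212, 331 and 429 CPM in untreated HT1376 CT and at 361, 765 and 699 CPM with IFNγ. The HT1376 FOXP3 KO libraries stood at 107, 119.5 and 117 CPM untreated and 194, 241 and 179 CPM with IFNγ. The 3 untreated HT1376 FOXP3 KO libraries lay close together, and number 11 was the lowest of each HT1376 CT group. BIRC3 was lower in HT1376 FOXP3 KO untreated (log2 fold change -1.48, SE 0.21, adjusted p = 0.000277) and with IFNγ (log2 fold change -1.53, SE 0.25, adjusted p = 0.000798). IFNγ raised it in HT1376 FOXP3 KO by 1.81-fold (log2 fold change 0.86, SE 0.14, adjusted p = 0.0204). That call was lost without number 11 or 13 of the untreated or number 11 of the treated libraries (adjusted p of 0.0995 to 0.154) and in the fit of all 12 (0.296). In HT1376 CT the fitted effect was as large, but with more spread (log2 fold change 0.94, SE 0.28, adjusted p = 0.0865), and it was called in both blocked fits (adjusted p = 1.53e-05 with bias-adjusted deviance), by DESeq2, without a filter on low counts and without number 11 of the treated libraries. The difference in response was -0.08 (SE 0.35).

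SOD2, the mitochondrial manganese superoxide dismutase, was the one of the 10 genes called for a different response to IFNγ in the lines. The file's identifier for SOD2 is not in GENCODE 44, so its place (chr6:159669069-159762529, minus strand) was matched by symbol. It was at 60.7, 65 and 55.5 CPM in untreated HT1376 CT and at 151, 296 and 229.8 CPM with IFNγ. For HT1376 FOXP3 KO the values were 126, 125 and 124 CPM untreated and 162, 199 and 163 CPM with IFNγ. The untreated HT1376 FOXP3 KO libraries lay close together and above all untreated HT1376 CT libraries. IFNγ raised SOD2 by 3.8-fold in HT1376 CT (log2 fold change 1.93, SE 0.21, adjusted p = 0.000133). The ratio in HT1376 FOXP3 KO was 1.42 (log2 fold change 0.51, SE 0.12, adjusted p = 0.155; 0.000113 with the replicate block and bias-adjusted deviance, and 0.0312 without a filter on low counts). The lines differed untreated (log2 fold change 1.07, SE 0.11, adjusted p = 2.8e-05) and overlapped with IFNγ (log2 fold change -0.32, SE 0.21, adjusted p = 0.293), where the difference was called once number 11 of treated HT1376 CT was left out (-0.55, adjusted p = 0.0354).

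The interaction of line and IFNγ was -1.42 for SOD2 (SE 0.25, adjusted p = 0.0403, edgeR over 27806 genes). It was the only call among the 10 genes, against 0.108% lower and 0.0036% higher of all genes tested. Its place just under the threshold was not stable. The adjusted p was 0.0546 with bias-adjusted deviance, 0.0590 with DESeq2 size factors and 0.0926 under filterByExpr, and it passed the threshold in 2 of 12 fits without 1 library, those without number 11 of treated HT1376 CT or number 12 of treated HT1376 FOXP3 KO. The size stayed between -1.60 and -1.15 in those 12 fits. With the replicate block and bias-adjusted deviance the adjusted p was 0.000555, and by DESeq2 0.00071. A replicate block within each line with bias-adjusted deviance, a fit chosen after the data were seen, gave 1.33e-06. For the other 9 genes the difference in response was between -0.76 and 0.06. SOD2 shares exon bases with WTAP, ACAT2 and SOD2-OT1. SOD2-OT1, on the same strand, shares the most, 939 bases, and averaged 0.634 to 1.28 CPM in the groups. WTAP, on the opposite strand with 437 shared bases, stayed at 111 to 125 CPM in the group means and was called in no comparison. Reads in the shared bases cannot be assigned.

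**Figure D2:**
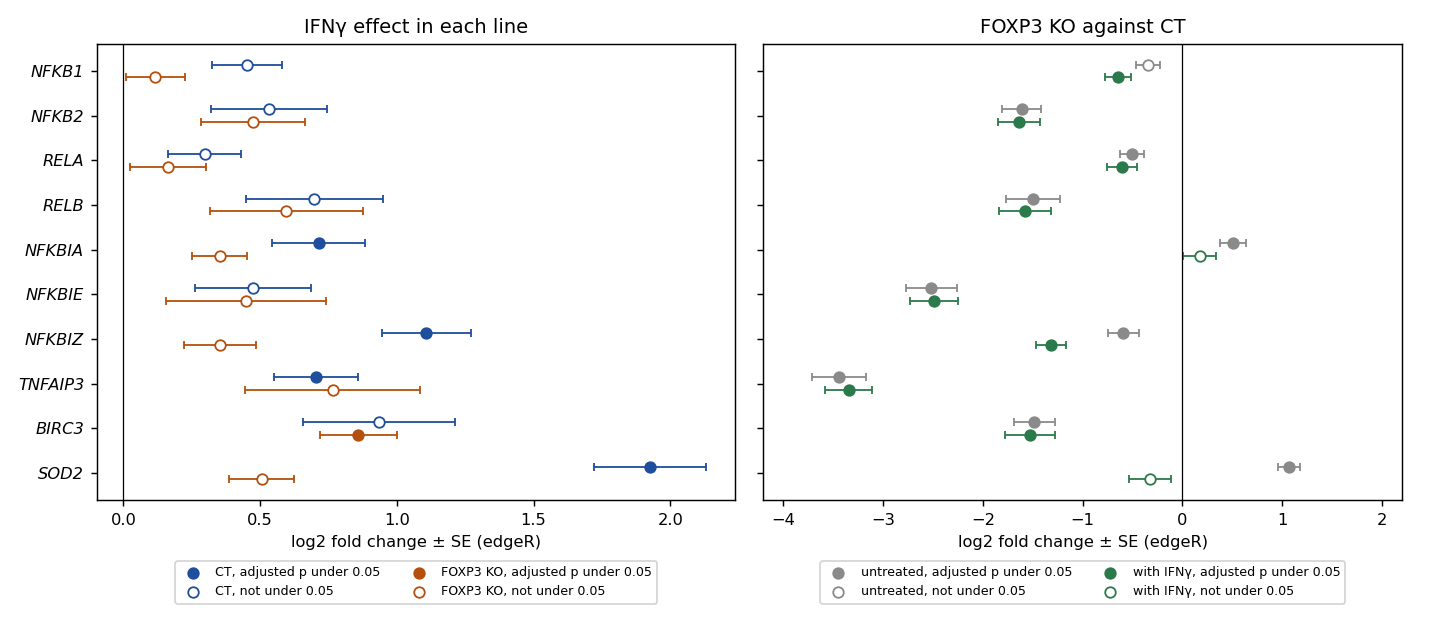
Fitted log2 fold change (horizontal axis) ± SE of each of the 10 genes, for IFNγ against untreated in each line (left) and for HT1376 FOXP3 KO against HT1376 CT (right). Filled points have an adjusted p under 0.05 (edgeR, over all genes). On the left all points lie above 0 and SOD2 in HT1376 CT is farthest out at 1.93; on the right TNFAIP3 is farthest from 0 at -3.44.

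The genes were also ranked by level per kb of exon (normalized CPM per kb, GENCODE 44 exon union), without SOD2, whose identifier gave no length. In untreated HT1376 CT the order was TNFAIP3 (75.2 ± 13.3, SD, n = 3), BIRC3 (43.3 ± 14.6), NFKBIA (20.6 ± 2.69), NFKB2 (15.9 ± 4.26), RELA (12.3 ± 1.37), NFKBIE (8.57 ± 2.23), NFKBIZ (5.47 ± 0.994), NFKB1 (4.56 ± 0.525) and RELB (4.53 ± 1.24). The libraries of TNFAIP3 and BIRC3 and those of BIRC3 and NFKBIA did not overlap, nor did those of NFKBIE and NFKBIZ, whereas the other neighbours did. On this measure the feedback genes TNFAIP3 and BIRC3 stood above the 4 subunit genes. The exon union counts the exons of all annotated transcripts, 15.68 kb for NFKB1 (25 transcripts) and 3.0 kb for RELB (7 transcripts). The order between genes therefore depends on the annotation, and the transcripts in use were not determined.

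In untreated HT1376 FOXP3 KO the order was NFKBIA (28.9 ± 2.56), BIRC3 (15.3 ± 0.873), RELA (8.57 ± 0.496), TNFAIP3 (6.87 ± 2.83), NFKB2 (5.17 ± 0.665), NFKBIZ (3.60 ± 0.0942), NFKB1 (3.55 ± 0.226), RELB (1.61 ± 0.473) and NFKBIE (1.51 ± 0.399), in normalized CPM per kb. NFKBIA, first here and the third in HT1376 CT, did not overlap with BIRC3, and TNFAIP3 overlapped with RELA and NFKB2. The same 2 genes led each line with IFNγ: TNFAIP3 (120.4 ± 21.9) and BIRC3 (81.3 ± 29.0) in HT1376 CT, with overlapping libraries, and NFKBIA (36.4 ± 1.28) and BIRC3 (27.4 ± 4.35) in HT1376 FOXP3 KO, without overlap. RELB and NFKB1 closed the order in treated HT1376 CT, RELB and NFKBIE in treated HT1376 FOXP3 KO.

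**Figure D3:**
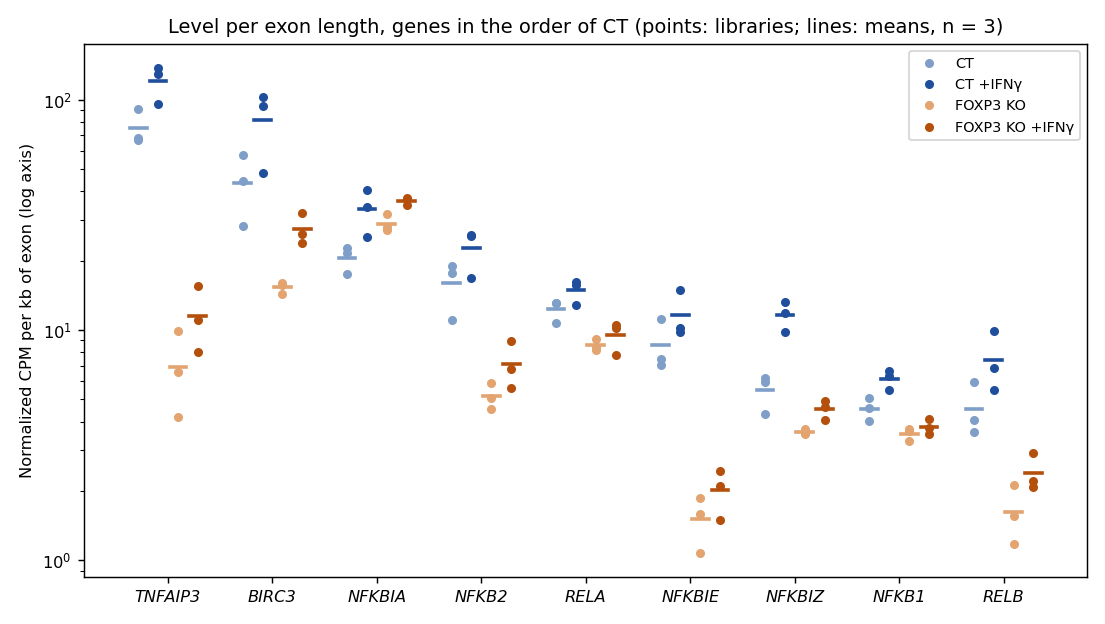
Normalized CPM per kb of exon (log axis) for 9 of the 10 genes, in the order of untreated HT1376 CT. Points are libraries and short lines are means of 3. TNFAIP3 leads both HT1376 CT groups and drops below NFKBIA and BIRC3 in HT1376 FOXP3 KO.

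Ratios of raw counts within a library do not depend on depth or scaling. The ratio of NFKB2 to NFKB1 counts was 1.23 ± 0.222 (SD, n = 3) in untreated HT1376 CT and 0.519 ± 0.0501 in untreated HT1376 FOXP3 KO, and 1.30 ± 0.187 and 0.665 ± 0.154 with IFNγ. The ratio of RELB to RELA was 0.201 ± 0.042 and 0.103 ± 0.0255 untreated, and 0.271 ± 0.0589 and 0.139 ± 0.0183 with IFNγ. The noncanonical subunits were therefore lower against their canonical relatives in HT1376 FOXP3 KO, with no overlap between the lines. The ratio of NFKBIE to NFKBIA was 0.317 ± 0.0698 and 0.0397 ± 0.0104 in the untreated lines, and 0.275 ± 0.0792 and 0.0419 ± 0.00858 with IFNγ. That of TNFAIP3 to NFKBIA was 6.97 ± 1.13 and 0.452 ± 0.195 untreated, and 6.94 ± 0.814 and 0.598 ± 0.183 with IFNγ. The TNFAIP3 to NFKBIA ratio of treated and untreated HT1376 CT differed by less than the spread of the libraries (exact permutation p = 1, two-sided). The ratio of SOD2 to NFKBIA went from 0.874 ± 0.134 to 1.97 ± 0.197 with IFNγ in HT1376 CT, without overlap, and from 1.28 ± 0.117 to 1.41 ± 0.155 in HT1376 FOXP3 KO, with overlap. An exact permutation test of 3 against 3 cannot give a two-sided p below 0.1, so that none of the 20 ratio comparisons could pass 0.05.

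**Figure D4:**
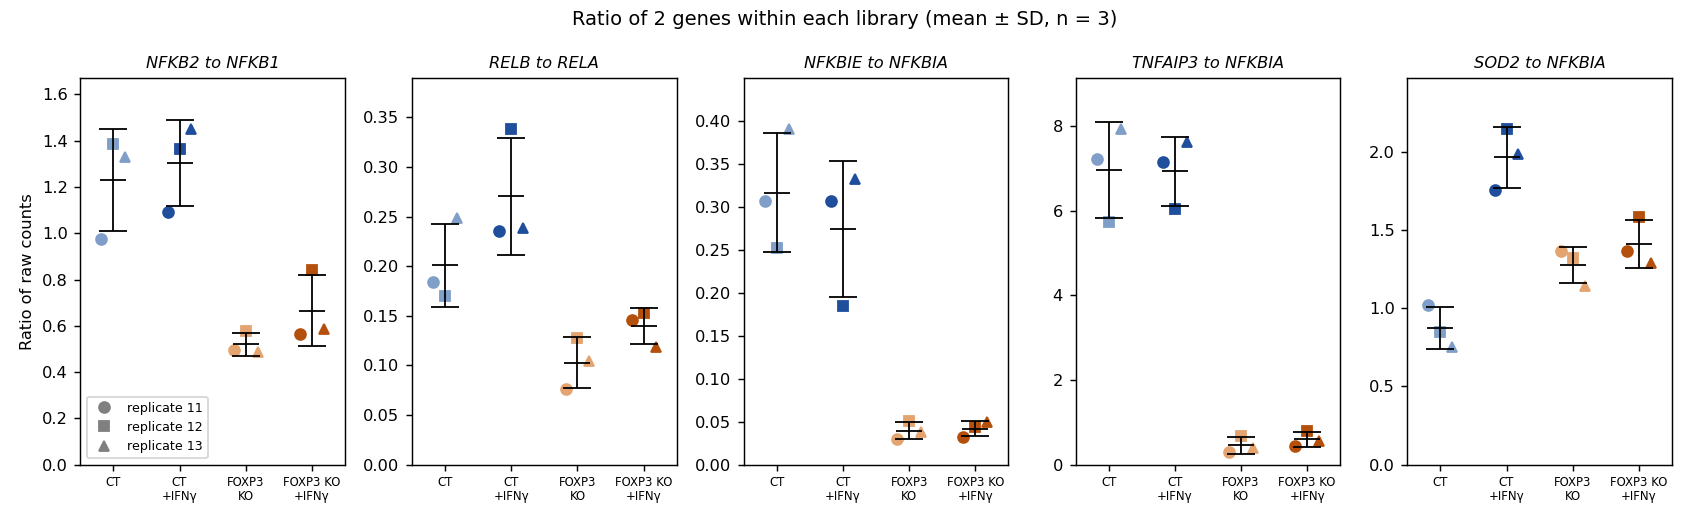
Ratio of the raw counts of 2 genes within each library (vertical axes, from 0) in the 4 groups, with the mean ± SD of 3 libraries. The NFKB2 to NFKB1, RELB to RELA, NFKBIE to NFKBIA and TNFAIP3 to NFKBIA ratios are lower in HT1376 FOXP3 KO in every library, and the SOD2 to NFKBIA ratio rises with IFNγ in HT1376 CT.

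For TNFAIP3 and NFKBIE, the 2 genes with the largest SD over the 12 libraries, the genes of most similar pattern were sought among 15667 genes with a mean of at least 1 CPM, by the root mean square difference of gene-centred log2 CPM. For TNFAIP3 they were AL022315.1 (0.224), WAKMAR2 (0.296), which overlaps it, and EDN1 (0.324), which encodes endothelin 1. For NFKBIE they were PREX1 (0.245), a guanine nucleotide exchange factor for Rac, the mitochondrial carrier gene SLC25A30 (0.246) and DLC1 (0.247). All 12 libraries enter each value, and the gap between the lines is part of each pattern.

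The other genes of the pathway were read from lists, by role. Their counts stand against the shares of all genes tested. Between the lines these were 18.2% lower and 14% higher untreated, and 15.7% lower and 13.2% higher with IFNγ. IFNγ raised 3.53% of all genes in HT1376 CT and 0.978% in HT1376 FOXP3 KO, or 8.67% and 3.92% with the replicate block. In HT1376 CT the blocked fit called 4530 of 24416 genes in either direction, and 2118 of these were higher. Blocked counts of the lists below come from the fit without bias-adjusted deviance. Between the untreated lines the median log2 fold change was -0.34 for the other subunits and inhibitors, -0.82 for the ligands and receptors, -0.24 for the adaptors and kinases and -1.07 for the target genes. For IFNγ in HT1376 CT the medians were 0.27, 0.26, 0.14 and 0.75 in that order, and in HT1376 FOXP3 KO 0.27, 0.11, 0.17 and 0.49. Of 12 other subunits and inhibitors, 11 were tested between the untreated lines, with 5 lower and 1 higher in HT1376 FOXP3 KO. TNIP1, a partner of A20, fell from 271 ± 39.3 to 111 ± 49.5 CPM (log2 fold change -1.28, SE 0.26, adjusted p = 0.00303). ZC3H12A, an RNase that limits inflammatory transcripts, fell by 0.79 and TNIP2 by 0.61 on the log2 scale. NFKBIB, which encodes IκBβ, was at 19.5 and 13 CPM (log2 fold change -0.57, SE 0.17, adjusted p = 0.0278). REL, the subunit of lymphoid cells, averaged 28.1 and 30 CPM (log2 fold change 0.12, SE 0.18, adjusted p = 0.664), and BCL3 5.3 and 4.59 CPM (log2 fold change -0.21, SE 0.33, adjusted p = 0.675). TNIP3 had 0 counts in every HT1376 CT library and 1.61 ± 1.59 CPM in untreated HT1376 FOXP3 KO. IFNγ raised 3 of 10 tested in HT1376 CT, CYLD (log2 fold change 1.49, SE 0.18, adjusted p = 0.000372), ZC3H12A (0.73) and N4BP1 (0.52), and 0 of 11 in HT1376 FOXP3 KO. CYLD, a deubiquitinase that restrains NF-κB, went from 56.8 to 157 CPM in HT1376 CT and from 44.5 to 73.6 CPM in HT1376 FOXP3 KO. With the replicate block 5 and 3 genes were called in the 2 lines.

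Of 20 ligands and receptors that feed the pathway, 17 were tested between the untreated lines, with 9 lower and 4 higher in HT1376 FOXP3 KO. TNF averaged 10.6 CPM in untreated HT1376 CT and 1.38 CPM in HT1376 FOXP3 KO (log2 fold change -2.98, SE 0.43, adjusted p = 0.000367). LTA, its neighbour in the genome and family, averaged 17.2 and 1.51 CPM (log2 fold change -3.50, SE 0.51, adjusted p = 0.000362). TLR4, the receptor for lipopolysaccharide, averaged 3.21 CPM in HT1376 CT and had at most 4 counts in an untreated HT1376 FOXP3 KO library. It was among the lower genes too. Those that were higher included IL1B (0.198 and 1.66 CPM, log2 fold change 2.83, SE 0.59, adjusted p = 0.00368), TLR3 (1.41) and CD40 (0.69), and TNFRSF1A, the main TNF receptor, was higher as well (0.57). IL1A, at 10.4 and 5.23 CPM, did not pass untreated (adjusted p = 0.0687, and 0.0180 with the replicate block). With IFNγ, 6 of the 17 were lower and 0 higher, IL1A among them (log2 fold change -1.91, SE 0.49, adjusted p = 0.0129). IFNγ raised 5 of 17 tested in HT1376 CT. TLR3 (2.59), TLR4 (2.57) and CD40 (2.31) led, and TNF rose from 10.6 to 24.6 CPM (log2 fold change 1.21, SE 0.32, adjusted p = 0.0491). Of 16 tested in HT1376 FOXP3 KO 1 was called, CD40 (log2 fold change 1.64, SE 0.16, adjusted p = 0.000661), and TNF went from 1.38 to 2.64 CPM (log2 fold change 0.98, SE 0.46, adjusted p = 0.96). With the replicate block 3 were called there.

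All 23 adaptors and kinases were tested, with 9 lower and 2 higher in untreated HT1376 FOXP3 KO and the same numbers with IFNγ. IKBKB, the main catalytic subunit of the IκB kinase, was at 54.8 ± 6.32 and 25.7 ± 4.18 CPM untreated (log2 fold change -1.07, SE 0.15, adjusted p = 0.000253). Its partner CHUK (log2 fold change -0.14, SE 0.12, adjusted p = 0.432), the scaffold IKBKG (log2 fold change -0.11, SE 0.30, adjusted p = 0.818) and the noncanonical kinase MAP3K14 (log2 fold change 0.16, SE 0.18, adjusted p = 0.535) were not called. With IFNγ, MAP3K14 was higher in HT1376 FOXP3 KO (log2 fold change 0.42, SE 0.13, adjusted p = 0.0363). Of this list, IRAK2 (-1.93) and TRAF2 (-1.02) fell with IKBKB the most in untreated HT1376 FOXP3 KO, whereas IRAK4 (log2 fold change 1.38, SE 0.15, adjusted p = 4.16e-05) and RBCK1 (0.67), a subunit of the linear ubiquitin ligase, were higher. IFNγ raised 4 in HT1376 CT, led by TRAF5 (1.80), RIPK2 (1.54) and RBCK1 (1.20), and 0 in HT1376 FOXP3 KO. The blocked fit called 10 in HT1376 CT, 8 higher and 2 lower, and 6 in HT1376 FOXP3 KO, all higher.

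Of 30 other NF-κB target genes, 27 were tested between the untreated lines, with 8 lower and 2 higher in HT1376 FOXP3 KO. CSF2 averaged 0.623 CPM in HT1376 CT, had at most 1 count in an untreated HT1376 FOXP3 KO library and was among the lower genes. CD83 fell from 14.2 to 0.652 CPM (log2 fold change -4.53, SE 0.49, adjusted p = 4.54e-05). PTGS2, which encodes cyclooxygenase 2, fell from 830.3 ± 302 to 94.6 ± 32.4 CPM (log2 fold change -3.12, SE 0.29, adjusted p = 1.56e-05). CCL5 (1.98) and GADD45B (0.55) were the higher ones. With IFNγ 15 of 26 were lower and 0 higher. IFNγ raised 8 of 27 in HT1376 CT and 4 of 23 in HT1376 FOXP3 KO. ICAM1, the leukocyte adhesion molecule, went from 10.3 to 627 CPM in HT1376 CT (log2 fold change 5.95, SE 0.36, adjusted p = 8.72e-07) and from 5.65 to 57.1 CPM in HT1376 FOXP3 KO (log2 fold change 3.37, SE 0.21, adjusted p = 3.04e-05). IL32 (5.13 and 3.82) and IRF1 (3.83 and 2.91) rose in both lines as well. The difference in response was called for ICAM1 (log2 fold change -2.59, SE 0.42, adjusted p = 0.0199) and IRF1 (log2 fold change -0.93, SE 0.15, adjusted p = 0.0171), both smaller in HT1376 FOXP3 KO. The blocked fit called 13 of these genes in HT1376 CT, 12 higher and 1 lower, and 11 in HT1376 FOXP3 KO, all higher.

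**Figure D5:**
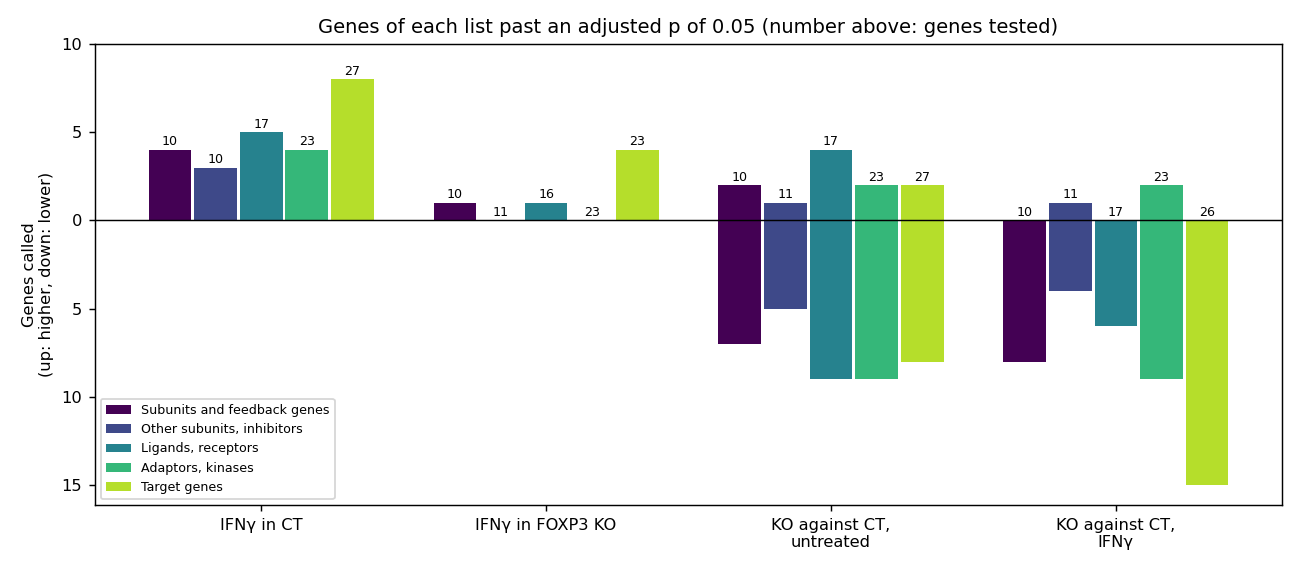
Number of genes with an adjusted p under 0.05 (vertical axis, higher above 0 and lower below) in each list and comparison, with the number tested above each bar. The fits shown have no replicate block. In them IFNγ gave only higher genes in these lists, and the bars between the lines point mostly down.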

How the data were processed

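Gene counts were analysed for 12 RNA libraries of HT1376 CT and HT1376 FOXP3 KO, untreated or with IFNγ. RNA was isolated with Trizol, and libraries were made with the KAPA RNA HyperPrep Kit with RiboErase and sequenced with paired ends on a NovaSeq. The authors deposited raw counts per gene, made by removing Mycoplasma reads with Kraken, aligning to GRCh38 (Ensembl 103 annotation) with STAR (2.7.11a in the submitters' processing notes) and counting with htseq-count. The settings for strand and multiply mapped reads are not given in the sources used here.

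Counts were fitted in R 4.3.3 with edgeR 4.0.16 (TMM, quasi-likelihood test) over genes with at least 10 counts in the libraries compared, and p-values were adjusted over all genes tested by Benjamini-Hochberg. Genes with an adjusted p under 0.05 were called. Each IFNγ effect and each difference between lines used the 6 libraries of its groups, and the interaction used all 12. CPM were normalized by dividing by the effective library size from TMM. The fits were tested on simulated data, where the replicate block without bias-adjusted deviance and DESeq2 made a larger share of false calls than the other fits in each comparison. The simulated counts held no effect of the replicate number. They therefore cannot show how a blocked fit behaves where libraries of the same number deviate together. Total counts per library limit the precision of low genes.

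Libraries of the same number within a line deviated together (r of 0.272 to 0.468 over 17605 genes), against -0.365 to 0.008 for unlike numbers. Between lines, the same number gave 0.107 to 0.275 in the groups compared, and unlike numbers gave -0.231 to 0.118. The ranges between lines overlap, so a pairing by number is less clear there. The numbers were still used as the block in each comparison. Over all groups the lowest r of the same number was 0.0915. Alternatives were a replicate block, bias-adjusted deviance, DESeq2 1.42.0 and its size factors, other filters, 1 fit of all libraries, and leaving out each library. The block within each line was added after the data were seen.

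The 10 genes and the gene lists were chosen with earlier results of these data known. All 10 genes are named. From each other list, up to 3 called genes in each direction and comparison with the largest log2 fold change could be named, and REL, NFKBIB, BCL3, IKBKB, CHUK, IKBKG, MAP3K14, TNF, IL1A, IL1B and TNFRSF1A whatever their result. Genes of similar pattern are the 3 nearest to each of the 2 members with the largest SD of log2 CPM. Positions and exon lengths come from GENCODE 44 (GRCh38), and promoter letters from RefSeq (GRCh38.p14). Some genes and motifs are not reported here.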

Additional observations from a re-analysis of the deposited data

Results flagged for a closer look

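The IFNγ effect on SOD2 differed between HT1376 CT and HT1376 FOXP3 KO by a test of the difference itself, the interaction of line and IFNγ, which was -1.42 on the log2 scale (SE 0.25, adjusted p = 0.0403, edgeR's quasi-likelihood test over 27806 genes). The call was lost in 10 of 12 fits without 1 library. Number by number, the log2 ratio of treated to untreated SOD2 was 1.32, 2.19 and 2.05 in HT1376 CT. It was 0.37, 0.67 and 0.40 in HT1376 FOXP3 KO, and the lines did not overlap. These ratios come from the same libraries as the test and are no separate support for it.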

How the results depend on the processing

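The number of the 10 genes called for IFNγ in HT1376 CT (4) was 2 at an absolute log2 fold change over 1, 8 without a filter on low counts, 10 with the replicate block, 10 with the replicate block and bias-adjusted deviance, and 2 to 5 when 1 library was left out. For HT1376 FOXP3 KO (1) it was 0, 3, 7, 5 and 0 to 1 in the same order, and 0 in the fit of all 12 libraries. For the interaction (1) it was 0 with DESeq2 size factors, under filterByExpr and with bias-adjusted deviance, 2 with the replicate block, 2 with the block within each line and bias-adjusted deviance, and 0 to 1 when 1 library was left out. Over all genes, too, more IFNγ calls were made in each line without a filter on low counts than in the main fit. Fewer were made at an absolute log2 fold change over 1. The counts of the 10 genes in these settings therefore cannot be read as particular to these genes. The cause was not tested. Between the lines the number stayed within 1.5 times of 9 untreated and 8 with IFNγ, at 7 to 9 when 1 library was left out. Among the 10 genes the replicate block changed no call other than those given beside the results.

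No called log2 fold change reversed its direction. Interactions that were not called did: NFKBIE gave 0.0068 without a filter, 0.029 with bias-adjusted deviance and 0.011 with the block within each line, and RELB 0.053 with the latter. Leaving out 1 library, the interaction ranged from -0.20 to 0.19 for NFKB2, -0.19 to 0.023 for RELA, -0.32 to 0.21 for RELB, -0.21 to 0.27 for NFKBIE, -0.16 to 0.50 for TNFAIP3 and -0.30 to 0.20 for BIRC3. With DESeq2 size factors SOD2 averaged 126 CPM in untreated HT1376 FOXP3 KO, and the other 39 group levels moved by less than 1 SD. Over all genes, the IFNγ calls in HT1376 CT went from 1307 to 4530 with the replicate block and in HT1376 FOXP3 KO from 237 to 1334. Those of the interaction went from 31 to 336. NFKBIE and RELB rest on the fewest counts in HT1376 FOXP3 KO.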
